A study of Mus musculus with 5 samples.

Results

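Dtx1, which encodes the Notch regulator Deltex1, and 5 genes of the Notch pathway were followed through 5 RNA sequencing libraries of mouse regulatory T (Treg) cells. The 6 genes, Dtx1, Notch1, Notch2, Notch3, Rbpj and Hes1, were taken by symbol from 38130 gene entries. They were picked because Dtx1 was lower in the Malt1 mutant libraries than in both wild-type libraries, so the level of Dtx1 is given as a description, with no test. Treg cells are a suppressive class of CD4 T cells defined by the factor Foxp3, and Malt1 encodes a paracaspase, a protease that also acts as a scaffold in antigen receptor signalling to NF-kB.

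All 5 libraries were made from total RNA of CD4+YFP+ cells sorted from C57BL/6 mice, in which Cre and a yellow fluorescent protein are expressed from Foxp3, controls included. Wild type (WT) gave 1 library at 21 days and 1 at 6 weeks of age. The group called KO here is Foxp3Cre-YFP/malt1fl/fl, with Malt1 deleted in Treg cells per its label, at 21 days (1 library). The group called KI is Foxp3Cre-YFP/malt1fl/C472A at 6 weeks (2 libraries), in which 1 allele is floxed and the other carries the C472A substitution, described in its label as an inhibition of protease activity. Whether mice were pooled, and whether each library is a different mouse, is not in the labels, so the p-values reflect variation between these libraries only, some or all of which may be technical.

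Levels are FPKM (fragments per kilobase of transcript, relative to all mapped fragments) as deposited by the authors, divided here by 1 factor per library and called scaled FPKM. Values in brackets are the authors' lower and upper bounds, scaled likewise, which cover error within a library and not between animals. Differences between libraries are those of log2(scaled FPKM + 1), where 1 stands for a 2-fold change and low genes appear to change less than they do. Depth read from the width of the bounds was 0.270 and 0.306 of that of WT at 21 days in WT at 6 weeks and KO, the 2 shallow libraries, and 0.856 and 0.834 in KI replicates 1 and 2, which with WT at 21 days were the 3 deep libraries. In both comparisons at equal age a deep library was therefore set against a shallow one, and there depth and genotype cannot be told apart. Malt1 itself stood at 27.0 and 15.2 scaled FPKM in WT at 21 days and 6 weeks, 17.6 in KO, and 55.9 and 37.8 in KI. The KO value was below that of WT at 21 days but not below that of WT at 6 weeks; a level over the whole gene does not separate the deleted exons, so it does not check the label. All 8 Treg markers listed were at 1 scaled FPKM or more in every library, Foxp3 at 70.7, 39.5, 30.5, 70.1 and 73.6 in the order WT at 21 days, WT at 6 weeks, KO, KI replicate 1 and KI replicate 2.

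Notch receptors are membrane proteins that are cut when a ligand of the Delta or Jagged family on a neighbouring cell binds them. The metalloprotease Adam10 cuts first and the gamma-secretase complex follows, and the released intracellular part enters the nucleus, joins the DNA-binding protein Rbpj and coactivators of the Mastermind family, and switches on genes such as Hes1, Hey1, Nrarp and Dtx1. Deltex1 is an E3 ubiquitin ligase that modulates Notch signalling, and in T cells it is known for promoting unresponsiveness to antigen (anergy) and, in Treg cells, for supporting Foxp3 by limiting the hypoxia factor Hif1a.

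In these cells Dtx1 was lower in the 3 Malt1 mutant libraries (20.6 to 22.7 scaled FPKM) than in both WT libraries (51.0 and 65.7). The receptors Notch1 and Notch2 and the nuclear factor Rbpj were expressed in every library, and none of them was lower in all 3 mutant libraries. Notch3 and Hes1 were close to 0 throughout. Of the 6 genes 4 reached a mean of at least 1 scaled FPKM over the 5 libraries and entered the tests over 11296 genes, and Notch3 and Hes1 did not.

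**Figure D1:**
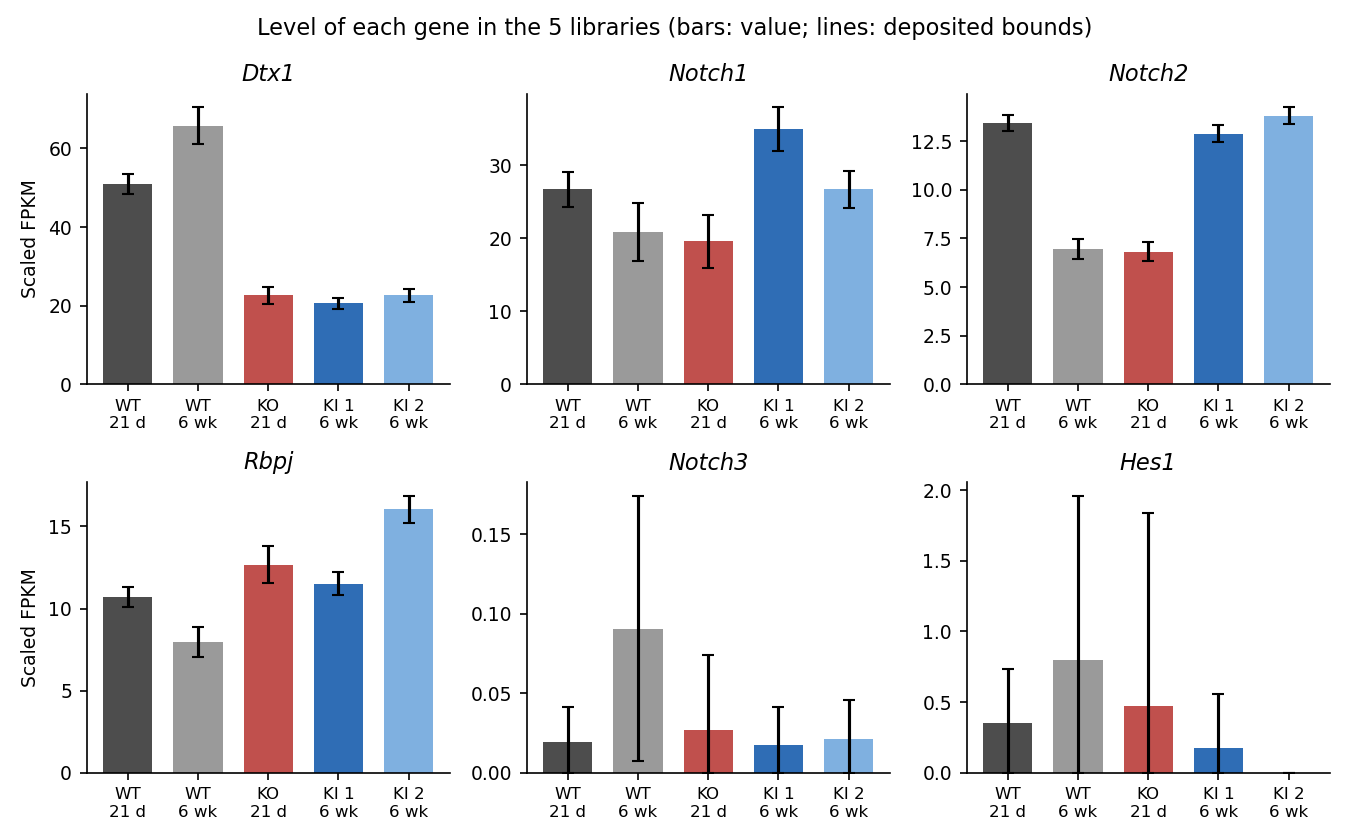
Scaled FPKM (vertical axis, linear, a scale of its own for each gene) of the 6 genes in each of the 5 libraries, with bars for the value and vertical lines for the deposited bounds. Dtx1 stands at 51.0 and 65.7 in WT and at 20.6 to 22.7 in the mutants, and Notch2 near 13 in the 3 deep libraries and near 7 in the 2 shallow ones.

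Ligands were scarce in the sorted cells. None of the 7 ligand genes listed reached a mean of 1 scaled FPKM. The most abundant were Jag2, at 0.778, 0.858, 0.519, 0.725 and 0.409 in the order given for Foxp3, and Jag1, at 0.492, 0.344, 0.669, 0.904 and 0.254. Dll1, a ligand of the Delta family, stood at 0.267, 0.452, 0.143, 0.0121 and 0.0213. Dlk1, a non-canonical ligand, was listed at 0 in all 5 libraries. In a bulk sample, fewer cells of a type and less RNA per cell cannot be told apart, and this holds for each level given here.

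Notch1 (ENSMUSG00000026923, chr2:26457903-26516663, minus strand, GRCm38) encodes the receptor best known for its part in T cell development. It stood at 26.7 scaled FPKM [24.3, 29.1] in WT at 21 days, 20.9 [16.8, 24.9] in WT at 6 weeks, 19.6 [15.9, 23.3] in KO, and 34.9 [31.9, 38.0] and 26.7 [24.2, 29.3] in KI replicates 1 and 2. KI replicate 1 was the highest and its bounds lay apart from those of the next library, while the bounds of every other pair of neighbours in that order overlapped. At 6 weeks the KI libraries were higher than WT by 0.72 and 0.34, mean 0.53 (standard error 0.280), and this did not pass the test (limma, two-sided, Benjamini-Hochberg adjusted p = 0.546, and 0.529 to 1 under the other settings tried). Only 1 of the 11296 genes passed that test (0.00885%), and 1211 (10.7%) were at an unadjusted p under 0.05. At 21 days KO was lower than WT by 0.43, and WT at 6 weeks was lower than WT at 21 days by 0.34, with 1 library a side and no test. With FPKM as deposited the KO difference was -0.06, that between the WT libraries turned to 0.03, and the KI mean was 0.25 above WT at 6 weeks. Over all 5 libraries the mutant mean was 0.15 (standard error 0.291) above the WT mean (limma adjusted p = 1). Entries Gm13568 and 0610009E02Rik, at up to 6.57 and 6.97 scaled FPKM, lie within the Notch1 span, and reads of overlapping genes may not be separated.

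Notch2 (ENSMUSG00000027878, chr3:98013538-98150367, plus strand) encodes a second receptor, required in B cells and dendritic cells of the spleen. Its levels were 13.4 [13.0, 13.9] in WT at 21 days, 6.96 [6.42, 7.49] in WT at 6 weeks, 6.82 [6.32, 7.31] in KO, and 12.9 [12.5, 13.3] and 13.8 [13.4, 14.2] in KI. The libraries fell into 2 sets that did not overlap, WT at 21 days with both KI libraries above WT at 6 weeks with KO, and within each set the bounds of neighbours overlapped. These are the deep and the shallow libraries: Notch2 and Notch1 were both among the 2664 tested genes (23.6%) with all 3 deep libraries above both shallow ones, and the part of depth in the result was not tested. Against WT at 6 weeks Notch2 was higher in KI by 0.81 and 0.90, mean 0.85 (standard error 0.272), which did not pass (limma adjusted p = 0.460, and 0.302 to 1 under the other settings). Against WT at 21 days the KI mean differed by -0.009. KO was lower than WT at 21 days by 0.89, close to the 0.86 by which WT at 6 weeks was lower than WT at 21 days, and with FPKM as deposited these were -0.54 and -0.51. The KO comparison and the comparison of WT ages share the WT library at 21 days.

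Notch3 (ENSMUSG00000038146, chr17:32120820-32166880, minus strand), a receptor that is itself a Notch target in thymocytes, was near 0. It stood at 0.0191 [0, 0.0413], 0.0906 [0.00712, 0.174], 0.0270 [0, 0.0738], 0.0174 [0, 0.0414] and 0.0211 [0, 0.0456] scaled FPKM in the order given for Foxp3. The bounds of all neighbours in the order of levels overlapped, and the lower bound was 0 in all libraries except WT at 6 weeks. Notch4, not among the 6, stood at 0.0328 to 0.156.

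Rbpj (ENSMUSG00000039191, chr5:53555779-53657445, plus strand) encodes the factor through which the cut receptors reach DNA. Its levels were 10.7 [10.1, 11.3] in WT at 21 days, 7.96 [7.05, 8.88] in WT at 6 weeks, 12.7 [11.6, 13.8] in KO, and 11.5 [10.8, 12.2] and 16.0 [15.2, 16.9] in KI. All 3 mutant libraries were above both WT libraries, as were 829 of the 11296 genes tested (7.34%), but the bounds of KI replicate 1 overlapped those of WT at 21 days. KI replicate 2 stood above the other mutants, with bounds apart from those of KO. At 6 weeks the KI libraries exceeded WT by 0.48 and 0.93, mean 0.70 (standard error 0.337), and this did not pass (limma adjusted p = 0.520, and 0.463 to 1 under the other settings). Over all libraries the mutant mean was 0.48 (standard error 0.244) above the WT mean, with an unadjusted p of 0.095 and a limma adjusted p of 1. In that fit 0 of 11296 genes passed (0%), and 297 (2.63%) were at an unadjusted p under 0.05. KO exceeded WT at 21 days by 0.23, and WT at 6 weeks was 0.38 below WT at 21 days. With FPKM as deposited these differences were 0.58 and -0.03, and the KI mean was 0.44 above WT at 6 weeks. GENCODE M21 names 2 pseudogenes of Rbpj, and 0 of them were found by symbol among the gene entries. Their reads may be shared with Rbpj.

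The promoter of Rbpj is shown because it holds the letters that Rbpj itself is known to bind. The window runs from 250 bases before to 50 bases after a RefSeq start site (build GRCm38.p6, chr5:53590096-53590395, plus strand) and lies inside the gene span of the files. Capitals mark the RBPJ core TGGGAA, searched on both strands, found at -149 and, on the opposite strand, at -65 from the start site.

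Rbpj promoter: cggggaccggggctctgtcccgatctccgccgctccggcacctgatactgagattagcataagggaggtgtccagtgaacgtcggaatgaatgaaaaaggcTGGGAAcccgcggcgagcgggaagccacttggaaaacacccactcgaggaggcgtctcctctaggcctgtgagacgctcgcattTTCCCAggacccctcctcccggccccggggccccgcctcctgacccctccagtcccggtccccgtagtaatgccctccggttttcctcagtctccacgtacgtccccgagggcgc

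The RBPJ core was in 25.6% of the 32851 windows of 27025 genes in the RefSeq table, so a match is common by its letters alone. The same window held 1 NFAT core, TGGAAA, at -120, which overlaps no RBPJ core and was in 21.4% of all windows. Another window of Rbpj, from a different start site (chr5:53590236-53590535), overlaps the one shown and is not printed. It held 1 RBPJ core, at -205 from its own start site, which is the match at -65 in the window shown. It held no NFAT core. Windows were given for 5 of the 6 genes, and none of those of Dtx1, Notch1, Notch2 and Notch3 held TGGGAA.

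Hes1 (ENSMUSG00000022528, chr16:30064384-30067796, plus strand), the repressor most often used as a readout of Notch signalling, stood at 0.354 [0, 0.738] scaled FPKM in WT at 21 days, 0.800 [0, 1.96] in WT at 6 weeks, 0.476 [0, 1.84] in KO and 0.174 [0, 0.555] in KI replicate 1, and was listed at 0 in KI replicate 2. Every lower bound was 0 and all neighbouring bounds overlapped, so no difference in Hes1 was detectable at this depth. The related genes Hes5, Hes7, Hey2 and Heyl also had means under 1. Hey1, another repressor of the family, was at 3.23, 0.307, 0.110, 5.23 and 0.861 in the order given for Foxp3. It was higher in each deep library than in both shallow ones, and the KI replicates differed from each other by 1.74.

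Dtx1 (ENSMUSG00000029603, chr5:120680202-120711927, minus strand) was the most abundant of the 6 genes in WT. It stood at 51.0 scaled FPKM [48.4, 53.5] in WT at 21 days, 65.7 [61.0, 70.4] in WT at 6 weeks, 22.7 [20.5, 24.8] in KO, 20.6 [19.1, 22.1] in KI replicate 1 and 22.6 [20.8, 24.3] in KI replicate 2. The WT libraries were the 2 highest, their bounds lay apart from each other and from every mutant library, and the bounds of neighbouring mutant libraries overlapped. The KI pair averaged 21.6 ± 1.40 scaled FPKM (SD, n = 2). Set against Notch1 on the same scale per length, Dtx1 was the higher of the pair in both WT libraries and in KO, and Notch1 was the higher in both KI libraries.

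As ratios of scaled FPKM, Dtx1 was 3.19-fold and 2.91-fold lower in KI replicates 1 and 2 than in WT at 6 weeks, and 2.25-fold lower in KO than in WT at 21 days. On the log2 scale these differences were -1.63, -1.50 and -1.13, against 0.36 between the WT libraries. Each mutant was also at least 2-fold below the WT library of the other age, KI replicates 1 and 2 by 2.47-fold and 2.26-fold and KO by 2.90-fold. By class of depth, the values were 20.6 and 22.6 in KI against 51.0 in WT at 21 days among the deep libraries, and 22.7 in KO against 65.7 in WT at 6 weeks among the shallow ones. Those 2 pairings cross ages, and their direction is fixed by the choice of Dtx1. Without scaling the deposited FPKM were 44.6, 75.6, 26.0, 17.9 and 22.9 in the order given for Foxp3, and both WT values were again above the 3 others. On that scale KO was 0.76 below WT at 21 days, short of 2-fold, and the WT libraries differed by 0.75.

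The background for this separation was as follows, and nothing is read from it for Dtx1, which was picked on it. All 3 mutant libraries were below both WT libraries for 793 of 11296 genes (7.02%), with bounds apart for 115 (1.02%), and each mutant was past 2-fold below each WT library for 17 (0.15%). In the other direction the bounds lay apart for 103 genes (0.912%). The gap on the log2 scale between the lowest WT and the highest mutant library was 1.13 for Dtx1, and 10 of 9872 protein-coding genes had a gap of at least 1, with Dtx1 at rank 8. In KI 316 genes (2.8%) were past 2-fold lower in both libraries and 340 (3.01%) past 2-fold higher. In KO 920 (8.14%) were past 2-fold lower and 693 (6.13%) past 2-fold higher. Between the WT libraries 585 (5.18%) were past 2-fold lower at 6 weeks and 382 (3.38%) past 2-fold higher.

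**Figure D2:**
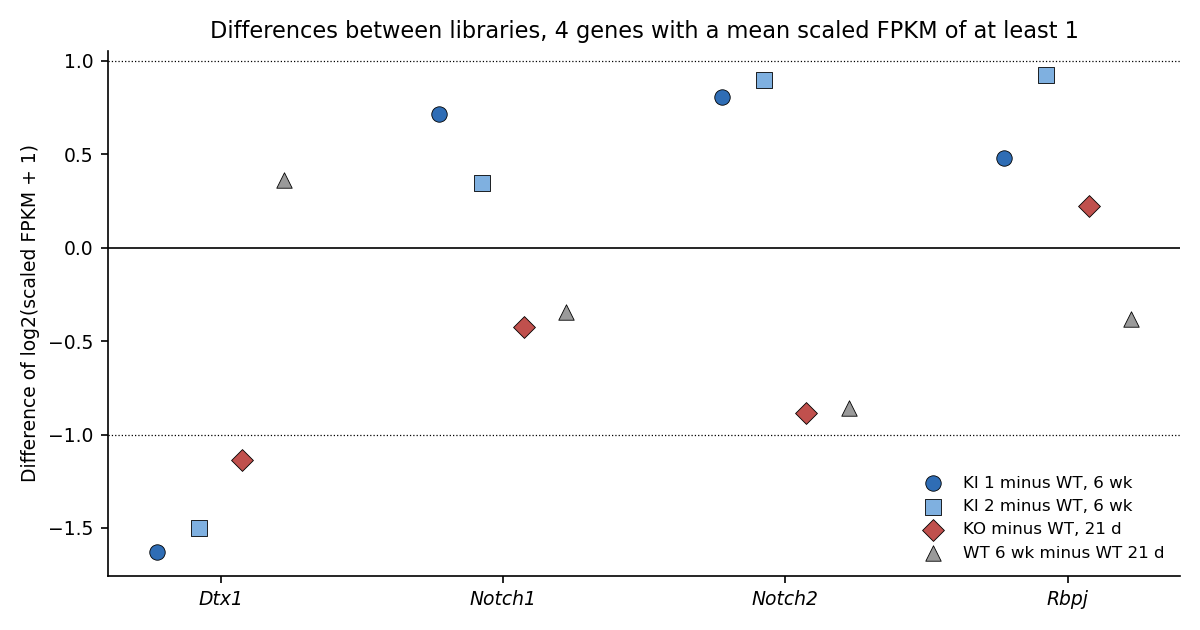
Differences of log2(scaled FPKM + 1) (vertical axis) for the 4 genes with a mean of at least 1 scaled FPKM: each KI library minus WT at 6 weeks (blue), KO minus WT at 21 days (red), and WT at 6 weeks minus WT at 21 days (grey), with dotted lines at a 2-fold change. Dtx1 lies below the lower line in all 3 mutant comparisons, at -1.63, -1.50 and -1.13, and Notch2 lies above 0 in KI and below 0 in KO and between the WT libraries.

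The promoter of Dtx1 is shown because the gene is known to be switched on both by Notch, through Rbpj, and by NFAT downstream of the antigen receptor. The window (RefSeq, GRCm38.p6, chr5:120711620-120711919, minus strand) runs from 250 bases before to 50 bases after the RefSeq start site and lies inside the gene span of the files. Capitals mark the single match among the motifs searched.

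Dtx1 promoter: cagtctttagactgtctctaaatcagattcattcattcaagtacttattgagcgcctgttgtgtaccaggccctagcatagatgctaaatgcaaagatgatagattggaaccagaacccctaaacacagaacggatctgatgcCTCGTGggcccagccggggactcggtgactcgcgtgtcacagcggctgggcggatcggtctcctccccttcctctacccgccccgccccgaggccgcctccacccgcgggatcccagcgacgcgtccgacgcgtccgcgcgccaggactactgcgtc

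The capitals are an N-box, CACNAG, the kind of site that Hes repressors bind, read on the opposite strand at -107 from the start site. An N-box was in 42.5% of all windows. The window held no RBPJ core, no NFAT core, neither of 2 NF-kB decamers (in 0.155% and 0.0883% of all windows) and no E-box CACGTG (7.15%) on either strand. This says only that these letters are not in these 300 bases.

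The other 4 deltex genes did not separate the groups. Dtx2 was at 6.81 to 9.26 scaled FPKM, Dtx3 at 19.8 to 30.0 and Dtx3l, which acts with a PARP enzyme in the DNA damage and interferon responses, at 17.2 to 33.7. For Dtx3 and Dtx3l the lowest and the highest library were the KI replicates. Dtx4 was low, at 0.595 to 2.47. For none of these 4 were all mutant libraries on one side of both WT libraries.

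The other genes of the pathway were taken from a list of 73 genes in 9 roles, of which 50 were tested. Of those 50, 33 stood above and 17 below WT at 6 weeks in KI, with a median of 0.13 (0.25 and 0.11 in KI replicates 1 and 2), and 17 were higher and 33 lower in KO than in WT at 21 days, with a median of -0.29; with FPKM as deposited these medians had the opposite signs, -0.15 and 0.09. Over all genes tested the medians were -0.004 in KI and 0.016 in KO on scaled FPKM, and -0.26 and 0.35 on FPKM as deposited. WT at 6 weeks against WT at 21 days gave 16 higher and 34 lower with a median of -0.17, which turned to 0.17 with FPKM as deposited. KI and the WT ages share the WT library at 6 weeks, and KO and the WT ages that at 21 days. For 20 of the 50 all deep libraries were above both shallow ones and for 9 all were below, where over all genes tested 2664 (23.6%) were above and 2668 (23.6%) below. Of the 49 genes other than Dtx1, 0 passed limma in KI and 0 over all libraries, and 3 and 0 were at an unadjusted p under 0.05.

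**Figure D3:**
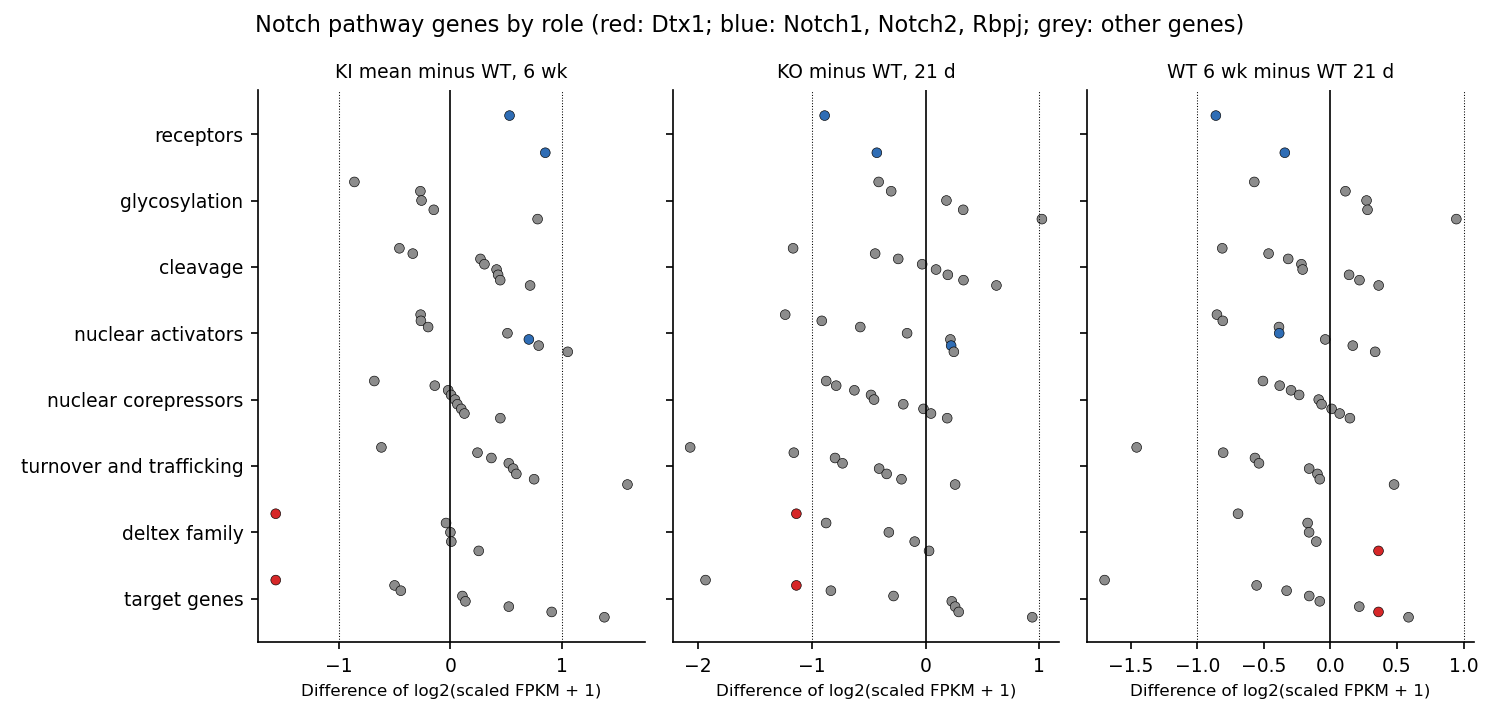
Differences of log2(scaled FPKM + 1) (horizontal axis, a range of its own in each panel) of the 50 tested Notch pathway genes by role, for the KI mean minus WT at 6 weeks, KO minus WT at 21 days, and WT at 6 weeks minus WT at 21 days; each point is a gene, with dotted lines at 2-fold. Dtx1 (red, under 2 roles) is the lowest point of the left panel at -1.56, and the receptors and Rbpj (blue) lie to the right of 0 in KI.

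By size, 1 of the 50 was past 2-fold higher in both KI libraries and 1 was past 2-fold lower, against 3.01% and 2.8% of all genes tested. The higher was Cbl, a ubiquitin ligase that also restrains antigen receptor signalling, at 28.8 and 39.4 scaled FPKM in KI against 10.5 in WT at 6 weeks. Cbl stood at 30.6 in the deep library of WT at 21 days and at 6.55 in the shallow KO library. The lower was Dtx1. In KO 6 of the 50 were past 2-fold lower, against 8.14% of all genes tested, and 1 was past 2-fold higher, against 6.13%. The lower were Adam10, Ep300, Itch, Cbl, Hey1 and Dtx1, the last picked for its level, and the higher was Rfng. Of those 7, Adam10, Ep300, Itch, Cbl and Hey1 had all deep libraries above both shallow ones, and for Rfng, a glycosyltransferase that modifies Notch, both shallow libraries (7.06 and 7.50) were above the deep ones (3.19 to 3.66). Between the WT libraries Cbl and Hey1 were the 2 genes past 2-fold lower at 6 weeks, and 0 were past 2-fold higher, against 5.18% and 3.38% of all genes tested.

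For 3 of the 50 all mutant libraries were below both WT libraries and for 4 all were above, against 7.02% and 7.34% of all genes tested, so neither count stands apart from the rest. Below were Dtx1, Maml2, a Mastermind coactivator at 7.27 and 7.05 scaled FPKM in WT and 5.91 to 6.39 in the mutants, and Tle1, a Groucho corepressor at 3.25 and 3.46 in WT and 1.21 to 2.49 in the mutants. Above were Rbpj, Nrarp, and the gamma-secretase subunits Ncstn and Aph1a. Nrarp, a Notch target that feeds back on the nuclear complex, stood at 1.85 and 1.69 in WT, 2.41 in KO, and 3.58 and 2.27 in KI. Aph1a stood at 12.8 and 15.02 in WT, 20.2 in KO, and 17.3 and 19.4 in KI, and Ncstn at 20.5 and 17.6 in WT, 21.95 in KO, and 23.7 and 25.1 in KI. Bounds lay apart between all mutants and both WT libraries for 1 of the 50, Dtx1, which was picked for its separation, and for 0 of the other 49. Over all genes tested they lay apart for 1.02% with the mutants lower and 0.912% with the mutants higher, so this count is near the share of all genes.

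The abundant genes of each role gave levels without such a separation. Among the glycosyltransferases that modify Notch, Lfng stood at 47.7, 51.7, 38.5, 37.4 and 48.8 scaled FPKM in the order given for Foxp3, and Mfng at 33.2, 40.5, 42.0, 38.1 and 29.8. Of the cleavage genes, the gamma-secretase subunit Psenen stood at 52.0 to 76.9 and Psen2 at 35.0 to 49.2. Snw1, Ep300 and Kat2b led the nuclear activators, at 24.5 to 34.0, 8.91 to 22.3 and 10.7 to 34.4, with the last 2 higher in all deep libraries. The corepressor Ncor1 stood at 64.4 to 99.8, the deacetylase Hdac1 at 59.1 to 70.5 and Ctbp1 at 51.5 to 59.1. Of the turnover genes, Neurl3, of the neuralized family of ubiquitin ligases, stood at 30.6 and 28.5 in WT, 17.2 in KO, and 38.0 and 30.3 in KI, and the ligase Itch at 19.2 and 10.6 in WT, 8.07 in KO and 16.4 in both KI libraries.

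Among the listed targets with roles beyond Notch, Il2ra, the high-affinity receptor chain for interleukin 2, stood at 93.4 scaled FPKM in WT at 21 days, 74.2 in WT at 6 weeks, 76.7 in KO, and 112 and 176 in KI. It was 0.58 and 1.23 above WT at 6 weeks in the KI replicates (limma adjusted p = 0.495). Il2ra was higher in each deep library than in both shallow ones, and the part of depth was not tested. Gata3, a T helper factor, stood at 48.2, 43.0, 59.2, 41.5 and 52.0 in the order given for Foxp3, and Myc at 36.9, 43.1, 43.5, 23.2 and 39.3. Neither separated the mutants from WT.

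Since Dtx1 is also a gene of T cell unresponsiveness, 16 genes linked to that state were set beside it, all of which were tested. In KI 10 stood above and 6 below WT at 6 weeks, with a median of 0.20, and in KO 8 were higher and 8 lower than in WT at 21 days, with a median of -0.06; with FPKM as deposited the medians were -0.09 and 0.32. None of the 16 was past 2-fold lower in both KI libraries and 2 were past 2-fold higher, against 2.8% and 3.01% of all genes tested. None had all mutant libraries below both WT libraries and 1 had all above, against 7.02% and 7.34%. In a list of 16 genes a count of 0 is close to such shares, so nothing is read from it. Hif1a, which Deltex1 is known to mark for degradation, stood at 69.2 scaled FPKM in WT at 21 days, 28.9 in WT at 6 weeks, 42.1 in KO, and 82.3 and 92.8 in KI. It was 1.48 and 1.65 above WT at 6 weeks in the KI libraries (limma adjusted p = 0.319) and lower than WT by 0.70 in KO. Against WT at 21 days the KI libraries were higher by 0.25 and 0.42. Hif1a was higher in each deep library than in both shallow ones, and neither the part of depth nor a link to Dtx1 was tested.

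The most abundant genes of unresponsiveness were Dgka and Dgkz, the diacylglycerol kinases that damp antigen receptor signals, and Ikzf1. Dgka stood at 135 and 223 in WT, 154 in KO, and 148 and 135 in KI, and Dgkz at 99.7 and 137 in WT, 104 in KO, and 95.5 and 79.9 in KI. Both were highest in WT at 6 weeks. Ikzf1 stood at 84.5 to 103. The NFAT genes Nfatc1, Nfatc2 and Nfatc3, whose proteins are known to switch on Dtx1, stood at 36.2 to 50.9, 15.7 to 24.9 and 30.7 to 51.9, with mutants and WT overlapping.

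Most markers of B cells shared the order of Dtx1. Dtx1 and Notch2 are also expressed by B cells. For 8 of the 10 B cell markers all mutant libraries were below both WT libraries, as they were for 7.02% of all genes tested. Only 4 of the 10 reached a mean of 1 scaled FPKM, 3 of them with all mutants below, and the rest were low. The 10 summed to 19.9 and 27.7 scaled FPKM in WT against 9.41 in KO and 4.90 and 3.43 in KI. Cd79b, a subunit of the B cell receptor, stood at 8.93 and 11.6 in WT, 4.79 in KO, and 2.06 and 1.99 in KI, and Ms4a1, the B cell antigen CD20, at 2.996 and 2.49, then 0.585, 0.571 and 0.454. The other 2 of the 10 were higher in KO than in a WT library: Cd22 stood at 1.34 and 1.87 in WT, 2.41 in KO, and 0.361 and 0.109 in KI, and Ebf1 at 0.171 and 1.75, then 0.181, 0.139 and 0.0867. None of the 10 was listed at 0 in WT, and Cr2 was listed at 0 in KO. The part of B cell RNA in the level of Dtx1 was not tested.

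Sums of 10 myeloid markers were 37.8 and 149 in WT and 31.6 to 61.0 in the mutants, and those of 9 plasmacytoid dendritic cell markers 49.6 and 132 in WT and 33.4 to 53.3 in the mutants; WT at 6 weeks was the highest for 10 of 10 and 7 of 9 of these, and for 7 of the 10 B cell markers. Comparisons of Dtx1, Notch2 or Rbpj with WT at 6 weeks rest on that library, and the part of these cells in them was not tested. The 7 CD8 T cell and thymocyte markers summed to 29.0 and 32.3 in WT and 24.99 to 27.7 in the mutants, with 1 of the 7 below WT in all mutants. The 7 stromal, endothelial and epithelial markers summed to 27.6 and 37.8 in WT and 32.2 to 34.2 in the mutants, with Krt8 and Col3a1 listed at 0 throughout. The 8 Treg markers summed to 1357 and 1233 in WT and 1112 to 1336 in the mutants, but single markers differed. In KO 3 of the 8 were past 2-fold below WT at 21 days and 0 past 2-fold above, against 8.14% and 6.13% of all genes tested. These were Foxp3 (30.5 against 70.7), Ctla4 (118 against 395.5) and Ikzf2 (15.35 against 68.0), and 4 of the 8 stood higher in KO. For 4 of the 8 all deep libraries were above both shallow ones and for 3 all were below, against 23.6% each. The part of depth in this was not tested.

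**Figure D4:**
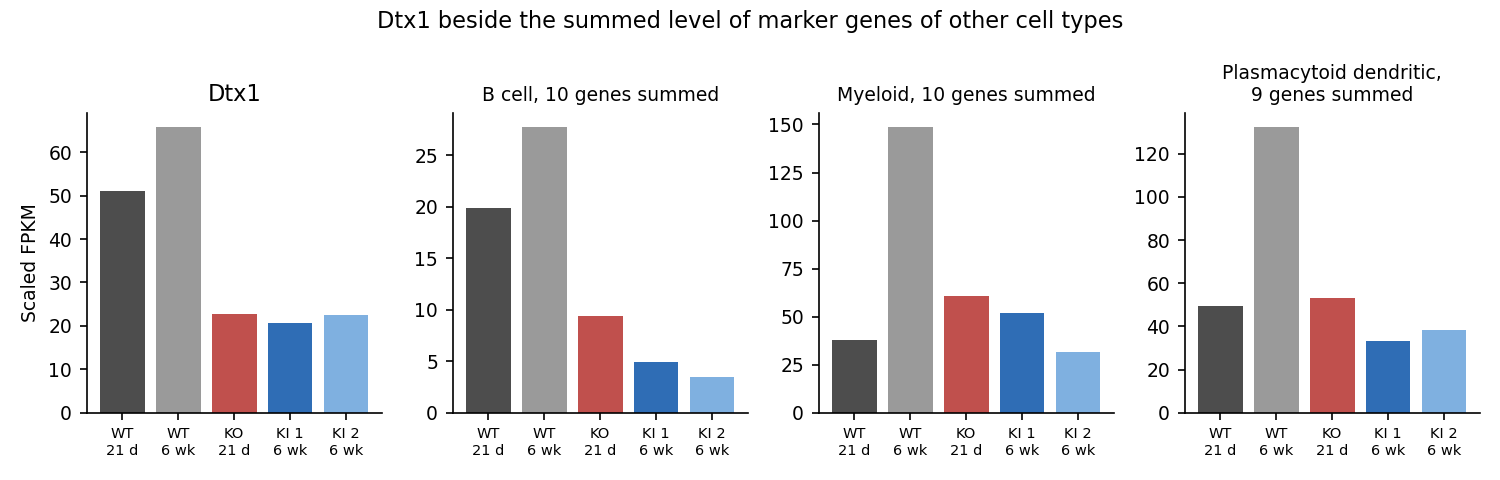
Scaled FPKM (vertical axes from 0, a scale of its own in each panel) of Dtx1 and of the summed B cell, myeloid and plasmacytoid dendritic cell markers in the 5 libraries. The B cell sum, like Dtx1, is lower in the 3 mutants (3.43 to 9.41) than in both WT libraries (19.9 and 27.7), and all 3 sums are highest in WT at 6 weeks (27.7, 149 and 132).

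Genes with profiles most like that of Dtx1 were ranked by the root mean square difference over the 5 libraries of log2(scaled FPKM + 1), each gene's mean subtracted. Over 9871 protein-coding genes the median of this distance was 0.724. The 10 nearest lay at 0.144 to 0.215 and were Gm11007, Gm3739, Actn1, Dhrs3, Gm3636, Gpr15, Oas2, Ms4a1, Oasl1 and Smox. The 5 libraries are the same for all, and since likeness to Dtx1 chose these genes their levels are a description.

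Of these 10, Actn1, the actin crosslinker alpha-actinin, was the most abundant, at 38.8 and 47.6 scaled FPKM in WT, 14.3 in KO, and 14.1 and 19.8 in KI. Gpr15, a chemoattractant receptor that brings T cells to the colon, stood at 6.83 and 8.66 in WT, 3.10 in KO, and 2.08 and 3.69 in KI. Dhrs3, a retinaldehyde reductase, stood at 4.70 and 5.84 in WT, 2.29 in KO, and 1.40 and 1.86 in KI. Oas2 and Oasl1 belong to the interferon-induced oligoadenylate synthetase family, at 2.33 and 4.97 and at 1.80 and 3.52 in WT and at 1.25 or less in the mutants. Smox, spermine oxidase, stood at 8.24 and 10.04 in WT and 3.80 to 4.53 in the mutants. Gm11007, Gm3739 and Gm3636 are predicted genes, and Gm3739 and Gm3636 are of a multigene family whose copies can share reads, so their levels are uncertain. Ms4a1 is one of the B cell markers above.

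**Figure D5:**
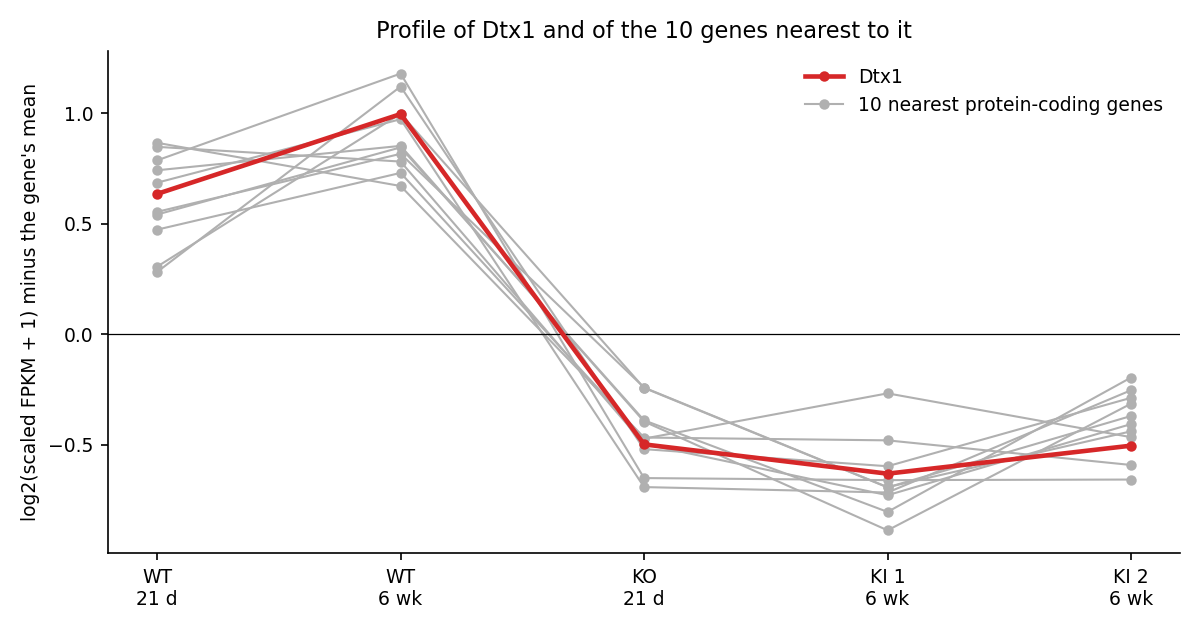
Profile of Dtx1 (red) and of the 10 protein-coding genes nearest to it (grey): log2(scaled FPKM + 1) minus the gene's mean over the 5 libraries (vertical axis) by library. Dtx1 and all 10 neighbours are above 0 in both WT libraries and below 0 in the 3 mutants, which is how they were chosen.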

How the data were processed

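Total RNA of sorted CD4+YFP+ Treg cells was sequenced in 5 libraries. The authors deposited gene-level FPKM with a lower and an upper bound per gene, per the file headers, from reads processed with Cufflinks 2.2.1, HISAT2 2.1.0 and CASAVA against GRCm38, per the submitters' processing notes. The tools' order and settings, the annotation release, strand and whether reads were paired are not stated there, and 1 entry in each KI library had a status other than OK.

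Each library's FPKM were scaled by a single factor (0.876, 1.15, 1.15, 0.868 and 1.01), the median of gene ratios over 9874 genes whose FPKM was never under 1. FPKM hold no counts; relative depth was read from the bounds, taken as 2 standard errors from the value, over 6426 genes at FPKM of 5 or more. The 11296 genes that averaged 1 scaled FPKM or more (9872 protein coding by GENCODE M21) were fitted on log2(scaled FPKM + 1) by limma 3.58.1 under R 4.3.3 (trended, two-sided, Benjamini-Hochberg adjusted, threshold 0.05): KI against WT at 6 weeks, where the lone WT library is assumed to vary like the KI pair, and all mutants against both WT. Groups of 1 library were compared by size. On simulated data over 11296 genes the KI design recovered 0% of 2-, 4- and 8-fold and 8% of 16-fold changes, and the pooled design 4%, 52%, 92% and 96%.

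The members, gene lists, markers and motifs were chosen with earlier results of these data known. Named were the 6 genes, the 3 most abundant genes of each role or list, every listed gene past 2-fold in both KI libraries or with all mutants on one side of both WT libraries, and the 10 nearest profiles; the genes past 2-fold in KO, between the WT libraries, and others named singly were chosen after their values were seen. Of the genes this rule names, 2 are not reported here. The alternatives were a pseudocount of 0.1, FPKM as deposited, no filter, protein-coding genes, other controls, no trend, age or depth as a covariate, and leaving out libraries.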

Additional observations from a re-analysis of the deposited data

Results flagged for a closer look

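Notch2 stood out because its difference from WT of equal age had opposite signs in the mutants. Both KI libraries were above WT at 6 weeks, by 0.81 and 0.90 on the log2 scale, and KO was 0.89 below WT at 21 days, so that the KI difference exceeded the KO difference by 1.74. For Notch1 the KI libraries were above WT by 0.72 and 0.34 and KO was 0.43 below, and the KI difference exceeded the KO difference by 0.96. With FPKM as deposited the KO difference was -0.06 for Notch1 and -0.54 for Notch2. Neither contrast between KI and KO was tested, since KO and each WT group have 1 library. For both genes the 3 deep libraries were above the 2 shallow ones, and the deep library was the mutant at 6 weeks and the WT at 21 days.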

How the results depend on the processing

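The direction of Dtx1 was fixed by its choice, so that it stayed lower in the mutants is no result. Only the size of the difference is described. Under all alternatives run it was 1.20 to 1.85 lower in KI and 0.76 to 1.495 lower in KO on the log2 scale. Notch1, Notch2 and Rbpj passed limma under none of the alternatives. In KI, where limma called 1 gene, it called 50 with a pseudocount of 0.1, 2 with FPKM as deposited, 15 among protein-coding genes, and 0 with no filter, without trend or with WT at 21 days as control; the pooled count of 0 ran from 0 to 11 (without WT at 6 weeks) when 1 library was left out, with 4 without WT at 21 days and 1 without KO. Genes past 2-fold in both KI libraries (656) numbered 1055 with a pseudocount of 0.1, 384 protein-coding, 134 against WT at 21 days, 227 against both WT, and 1260 to 1492 with 1 KI library. The 1613 of KO became 632 against WT at 6 weeks, and the 967 between the WT libraries 1498 with a pseudocount of 0.1 and 525 protein-coding. With FPKM as deposited the splits turned to 539 lower and 217 higher in KI, 493 and 1509 in KO, and 340 and 988 between the WT libraries. Genes with all mutants on one side (1622) numbered 2841 with no filter and 2923 to 4990 with 1 library left out. The Notch list median in KI (0.13) was -0.15 with FPKM as deposited, 0.014 against WT at 21 days and 0.11 to 0.25 with 1 KI library. In KO (-0.29) it was 0.088 with FPKM as deposited, -0.18 with no filter and -0.040 against WT at 6 weeks; between the WT libraries (-0.17) it was 0.17 with FPKM as deposited; pooled (-0.005) it ran from -0.11 (without WT at 6 weeks) to 0.064. The unresponsiveness median in KI (0.20) was -0.089 with FPKM as deposited and 0.050 against WT at 21 days, in KO (-0.06) 0.32 and, against WT at 6 weeks, 0.088, and between the WT libraries (-0.38) 0.00015 with FPKM as deposited. Notch2 turned to -0.0089 in KI against WT at 21 days and, in the pooled fit (0.13), to -0.016 with depth as covariate and ran from -0.30 (without WT at 6 weeks) to 0.56 with 1 library left out; pooled Notch1 (0.15) ran from -0.042 (without KI replicate 1) to 0.36. The cause of these shifts was not tested. Between groups of equal age depth limits what can be told, and low genes such as Hes1 and Notch3 are within their bounds. No paired analysis was possible because the groups compared share fewer than 2 replicate numbers, and those follow accession order.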
